A study of Rattus norvegicus with 17 samples.

Results

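Complement is a cascade of plasma proteins that tags microbes, immune complexes and damaged cells. In the classical pathway C1q binds its target, the attached proteases C1r and C1s are switched on, and C1s cleaves C4 and C2 into the enzyme that splits C3. In the alternative pathway factor B, encoded by Cfb, is cleaved by factor D, encoded by Cfd, to build a second enzyme that splits C3. The liver makes most of the circulating proteins, while macrophages, fibroblasts and epithelial cells make complement locally in gut tissue. C1q is a macrophage product, and factor D is also known as adipsin, a protein made in quantity by fat cells. Serping1 encodes the C1 inhibitor, which shuts down C1r and C1s.

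The 9 genes described here are C1qa, C1qb, C1r, C1s, Serping1, C2, C3, Cfb and Cfd, taken from 35561 gene names on the array. They were found by name: each non-control probe whose array gene name, without its suffix for predicted or mapped genes, equalled one of these symbols was a member. This gave 12 probes out of 41012, since C1qa, C1s and Serping1 have 2 probes each and the other genes 1. On the rn3 build given in the files, the brightest C1r and C1s probes lie at chr4:160973566-160973625 and chr4:160981661-160981720, those of C1qb and C1qa at chr5:155657575-155657634 and chr5:155672617-155672676, and that of Serping1 at chr3:67865200-67865259. The C2 probe lies at chr20:4071731-4071790, the Cfb probe spans chr20:4077203-4077346, the Cfd probe lies at chr7:11325547-11325604, and the C3 probe is on unplaced sequence. All 12 lay well above background on all 17 arrays and none was saturated. No member was therefore lost to the filter on dim probes, which left 27101 probes for testing.

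The samples were mucosa scraped from the colon of female rats on an inbred Fisher 344 background, 8 to 10 weeks old at the start. All carried transgenes for human HLA-B27 and β2-microglobulin, a combination that gives rats a spontaneous colitis, and no animal without the transgenes was analysed here. The high calcium group (n = 8 rats) ate a purified Western-type diet with 120 mmol calcium per kg, against 30 mmol per kg in the low calcium group (n = 9 rats), with the extra calcium replacing glucose. The comparison asks how dietary calcium bears on the colon of an animal prone to colitis. Each rat had 1 array, with its own RNA in Cy5 and a pool of RNA from all animals in Cy3. A value below is the log2 ratio of rat to pool, so that 0 means the level of the pool, and a difference is high minus low calcium on that log2 scale.

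Between 60.0% and 72.0% of spots per array lay well above background, and the number of arrays limits the precision. The 11 measured markers of colon epithelium were above background on all 17 arrays, and of 8 hepatocyte markers albumin was above background on 0 of 17, while Tf reached 17 and Apob and Serpina1 reached 16 each. Arrays lay on 5 slides: slides 1 to 4 each held 2 rats of each diet, and slide 5 held low calcium rat 1 alone.

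The promoters of 3 members are shown, chosen by the values below. C1r stood lower in high calcium rats and moved with C1s and Serping1. By the brightest probe of each gene, C1qa and C3 differed less between diets. No test compared these genes with each other. Each sequence runs 5′ to 3′ on the gene's own strand, from 250 bases before to 50 after the RefSeq start in GRCr8. Capitals mark matches to the 4 motifs searched on both strands: GAS, TTCNNNGAA, the interferon gamma activated site; an ISRE core, GAAA repeated with any 2 bases between, bound by interferon regulatory factors; C/EBP, TTGCNNAA; and NF-kB, GGG and TTCC with any 3 bases between.
C1r, chr4:159098763-159099062, plus strand: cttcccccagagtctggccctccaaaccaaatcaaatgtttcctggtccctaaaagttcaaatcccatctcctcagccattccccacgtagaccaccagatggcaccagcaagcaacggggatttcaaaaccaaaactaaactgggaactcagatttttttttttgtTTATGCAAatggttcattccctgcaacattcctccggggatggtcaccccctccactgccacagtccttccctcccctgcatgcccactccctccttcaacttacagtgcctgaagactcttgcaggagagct
C1qa, chr5:154419884-154420183, minus strand: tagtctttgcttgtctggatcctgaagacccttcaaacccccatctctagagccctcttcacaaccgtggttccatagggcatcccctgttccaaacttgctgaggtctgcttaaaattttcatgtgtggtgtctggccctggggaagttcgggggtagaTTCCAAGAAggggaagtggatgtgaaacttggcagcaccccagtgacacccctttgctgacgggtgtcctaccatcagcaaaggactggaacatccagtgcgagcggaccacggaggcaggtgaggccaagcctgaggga
C3, chr9:2201290-2201589, minus strand: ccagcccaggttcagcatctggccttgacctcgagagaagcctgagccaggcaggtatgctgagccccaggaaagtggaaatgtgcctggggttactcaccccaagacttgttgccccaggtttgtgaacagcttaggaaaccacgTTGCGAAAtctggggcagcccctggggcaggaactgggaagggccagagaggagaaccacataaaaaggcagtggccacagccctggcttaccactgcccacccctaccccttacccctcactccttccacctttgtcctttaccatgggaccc

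The C1r window held a C/EBP match on the minus strand, with its first base at -83 from the start, and the C3 window held one on the plus strand at -104. The C1qa window held a GAS match at -90. Of the other members with an entry among the 33469 promoters, C1qb held an NF-kB match at -245 and Cfd held none of the 4 motifs, so that 5 of the 9 genes were searched. Across all promoters 10.6% held the C/EBP motif, 8.87% GAS, 5.37% NF-kB and 3.92% the ISRE core. C/EBP factors drive acute phase genes, C3 among them. A match describes these letters and is not a site of binding.

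All 9 genes had a lower mean in high calcium rats than in low calcium rats, with differences between -0.43 for C1s and -0.09 for C1qb and a median of -0.33, although scaling the arrays to 1 spread turned C1qb to 0.26 and C3 to 0.052. That scaling gave a members' median of -0.61, with Cfd at -0.83, C1s at -0.82 and C1r at -0.63. Over all tested probes the median difference was 0.0069, and 46% of probes were lower whatever their p. C1r, C1s, Serping1, C2 and Cfd were lower at an unadjusted p under 0.05 (limma), which is 5 of 9 genes, against 4.84% of all tested probes. With Benjamini-Hochberg adjustment over all tested probes no member passed 0.05, where the percentage of all probes passing was 0, and the members' adjusted p ran from 0.211 to 0.807. The groups overlapped for all 9 genes; 0.0148% of tested probes were lower without overlap. With each array only centred on its median, or scaled to 1 spread after loess, 0 members were lower at an unadjusted p under 0.05. In whole tissue, fewer cells of a type and less RNA per cell cannot be told apart.

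**Figure D1:**
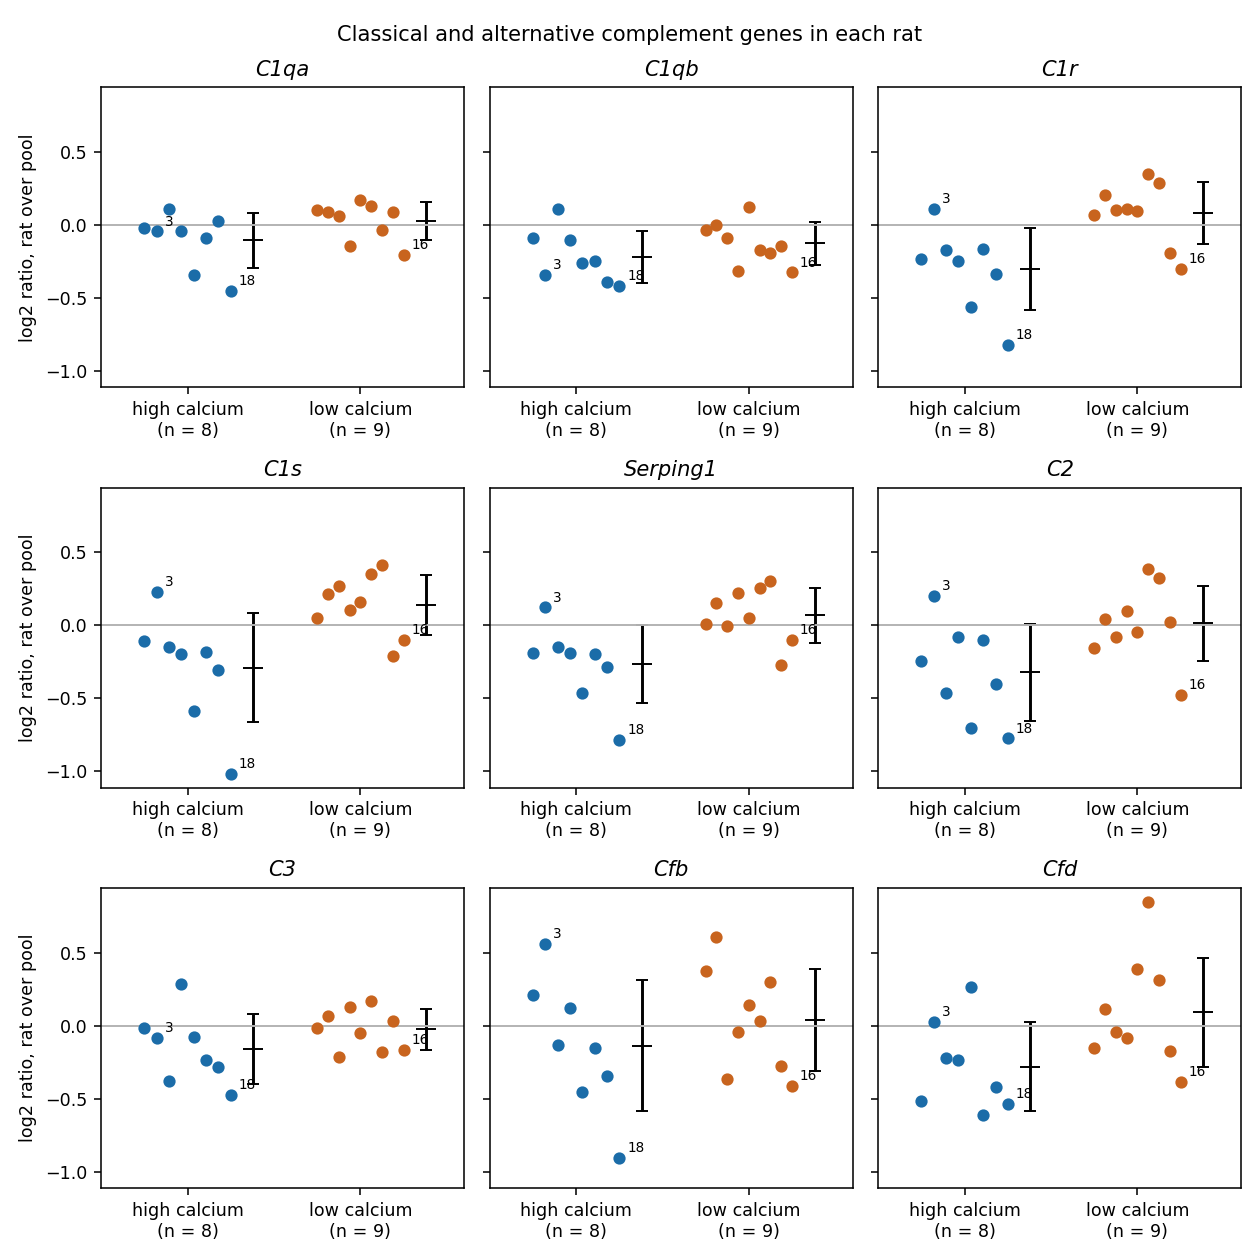
Log2 ratio of each rat to the pool (vertical axis) for the 9 complement genes, with 8 high calcium rats in blue at the left of each panel and 9 low calcium rats in orange at the right, and the mean ± SD in black. Rat 18 lies at the bottom of the high calcium group for 8 of the genes, rat 3 lies at its top for 5, and low calcium rat 16 is the lowest of its group for 6.

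The recognition molecule C1q is built from 3 chains, of which C1qa and C1qb are members. C1qa ran from -0.45 through a median of -0.04 to 0.11 in high calcium rats, against -0.21, 0.09 and 0.17 in low calcium rats. The means were -0.11 ± 0.19 and 0.03 ± 0.13 (SD, n = 8 high and 9 low calcium rats). The difference was -0.13 ± 0.07 (SE, limma adjusted p = 0.632), with a 95% interval of -0.29 to 0.02. Most rats of both diets lay in one band, and rats 13 and 18 of the high calcium group lay beneath it. The dimmer C1qa probe gave -0.23 ± 0.09 (limma unadjusted p = 0.0194, adjusted p = 0.459), and the 2 probes correlated at r = 0.93 over 17 rats. By that probe C1qa too was lower at an unadjusted p under 0.05, so its call depends on the probe.

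C1qb ranged between -0.42 and 0.10, median -0.26, in high calcium rats and between -0.33 and 0.12, median -0.14, in low calcium rats. It had the smallest difference of the 9, at -0.09 ± 0.07 (SE, limma adjusted p = 0.769; 95% interval -0.24 to 0.06). The groups overlapped over most of their range, with 3 high calcium rats below the whole low calcium group. C1qc, the gene of the third chain, which lies between C1qb and C1qa in the RefSeq order of genes on chromosome 5, stood at -0.13 ± 0.08 (limma adjusted p = 0.662).

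C1r, the protease that activates itself and then cleaves C1s, gave a clearer separation. It ran from -0.82 through a median of -0.24 to 0.11 in high calcium rats, against -0.30, 0.10 and 0.35 in low calcium rats. Its means were -0.31 ± 0.28 and 0.08 ± 0.21 (SD, n = 8 high and 9 low calcium rats). The difference was -0.38 ± 0.11 (SE, limma adjusted p = 0.211), with a 95% interval of -0.60 to -0.17, or 0.766-fold. An exact two-sided permutation test over all 24310 assignments of the rats gave p = 0.0051 for this gene alone. The same permutation test gave p = 0.108 for C1qa, 0.258 for C1qb, 0.173 for C3 and 0.375 for Cfb. Of the high calcium rats 7 of 8 lay below the low calcium median, and rat 3 was the exception.

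C1s, the protease that cleaves C4 and C2, spanned -1.02 to 0.23 with a median of -0.19 in high calcium rats, against -0.21 to 0.42 with a median of 0.16 in low calcium rats. It had the largest difference of the 9, at -0.43 ± 0.12 (SE, limma adjusted p = 0.253; exact permutation p = 0.00551), or 0.743-fold. Again rat 3 lay above the low calcium median, and the 3 lowest high calcium rats had values beneath the whole low calcium group. The dimmer C1s probe gave -0.47 ± 0.13 (limma adjusted p = 0.227) and followed the brighter one at r = 0.96 over 17 rats.

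Serping1, whose product inactivates both of these proteases, behaved like them. Values ran from -0.79 through a median of -0.19 to 0.12 in high calcium rats, against -0.28, 0.05 and 0.30 in low calcium rats. The difference was -0.33 ± 0.10 (SE, limma adjusted p = 0.259; exact permutation p = 0.00666), or 0.793-fold. The enzyme pair and its inhibitor thus stood lower together, in 7 of 8 high calcium rats relative to the low calcium median for each of the 3 genes. The dimmer Serping1 probe gave -0.27 ± 0.07 (limma adjusted p = 0.201).

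C2, which supplies the catalytic part of the classical C3-splitting enzyme, ran from -0.78 through a median of -0.33 to 0.20 in high calcium rats, against -0.48, 0.02 and 0.38 in low calcium rats. Its difference was -0.33 ± 0.12 (SE, limma adjusted p = 0.418; exact permutation p = 0.0352), with a 95% interval of -0.59 to -0.08. Rat 16 was the lowest low calcium rat, beneath 6 of the 8 high calcium rats. The other part of that enzyme comes from C4; C4a stood at -0.11 ± 0.06 (limma adjusted p = 0.653), and C4b had no probe under the names searched.

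C3, on which both pathways converge, ran from -0.48 through a median of -0.16 to 0.28 in high calcium rats, against -0.22, -0.02 and 0.17 in low calcium rats. The difference was -0.13 ± 0.08 (SE, limma adjusted p = 0.698), with a 95% interval of -0.31 to 0.04. The highest and the lowest rats of the whole set were both on high calcium, namely rats 10 and 18.

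Cfb, the alternative pathway's counterpart of C2 and its neighbour on chromosome 20, varied more between rats than any other member within the high calcium group. It ran from -0.91 through a median of -0.14 to 0.56 in high calcium rats, against -0.41, 0.03 and 0.61 in low calcium rats. The difference was -0.18 ± 0.17 (SE, limma adjusted p = 0.807), with a 95% interval of -0.52 to 0.17, which includes differences as large as those of C1r and C1s. Rats of both diets were spread over nearly the whole range.

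Cfd ran from -0.61 through a median of -0.33 to 0.26 in high calcium rats, against -0.39, -0.04 and 0.85 in low calcium rats. The difference was -0.37 ± 0.14 (SE, limma adjusted p = 0.444; exact permutation p = 0.0394), with a 95% interval of -0.67 to -0.07. Low calcium rat 8 carried the top value. Without rat 8 the difference was -0.28 ± 0.12 (SE, limma unadjusted p = 0.0355).

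**Figure D2:**
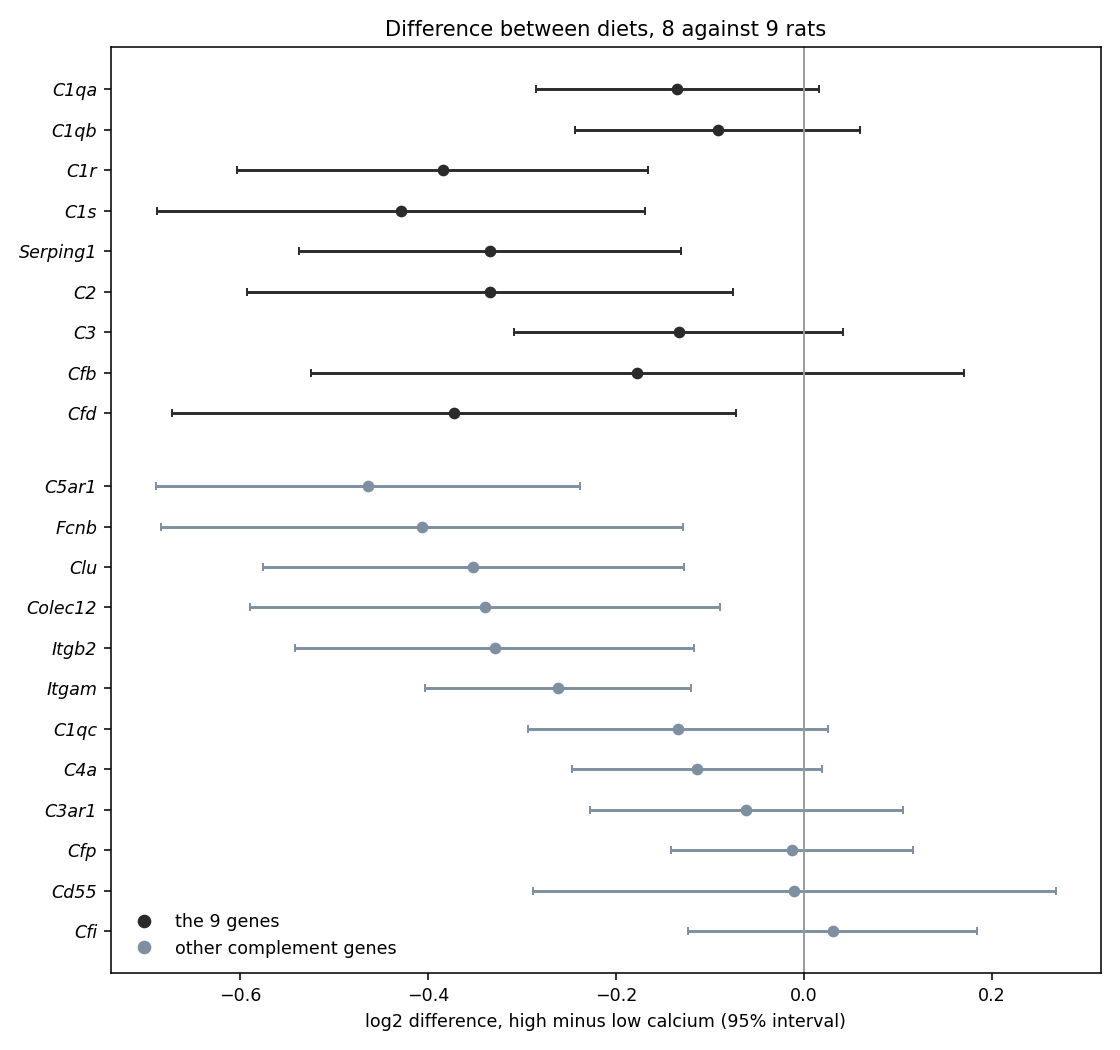
Log2 difference, high minus low calcium, with its 95% interval from limma (horizontal axis) for the 9 genes in black and 12 other complement genes in grey. The intervals of C1r, C1s, Serping1, C2 and Cfd lie below 0, and those of C1qa, C1qb, C3 and Cfb include it, with C1s at -0.43 and C5ar1 at -0.46 farthest from 0.

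Of 42 other complement genes looked up, 37 had a probe and 27 were tested. Of these, 19 were lower and 8 higher in high calcium rats, or 14 and 13 with median centring, with a median of -0.04, and 6 were lower and 0 higher at an unadjusted p under 0.05, against 4.84% of all tested probes lower. Of these 6, Itgam alone kept an unadjusted p under 0.05 with median centring, and Itgam and Colec12 did when arrays were scaled to 1 spread. C5ar1, the receptor for the inflammatory fragment C5a, had the largest difference, at -0.46 ± 0.11 (SE, limma adjusted p = 0.149). It ran from -0.79 through a median of -0.32 to -0.0031 in high calcium rats, against -0.32, 0.09 and 0.47 in low calcium rats, so the groups overlapped. The gene of C5 itself was too dim to be tested.

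Itgam and Itgb2, the chains of complement receptor 3 on myeloid cells, stood at -0.26 ± 0.07 and -0.33 ± 0.10 (SE, limma adjusted p = 0.190 and 0.306). Clu, encoding clusterin, which restrains the membrane attack complex, stood at -0.35 ± 0.11. Fcnb, a ficolin of the lectin pathway, stood at -0.41 ± 0.13, and Colec12, a scavenger receptor with a collectin domain, at -0.34 ± 0.12. Their limma adjusted p ran between 0.294 and 0.392.

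Among regulators of the C3-splitting enzymes, Cfi (factor I) stood at 0.03 ± 0.07, Cfp (properdin, which stabilises the alternative enzyme) at -0.01 ± 0.06 and Cd55 (decay-accelerating factor) at -0.01 ± 0.13, or -0.43 when arrays were scaled to 1 spread. C3ar1, the receptor for C3a, stood at -0.06 ± 0.08. Their limma adjusted p ran from 0.876 to 0.990.

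Single rats stood low or high for several members at once. Rat 18 held the lowest value of its group for all members except Cfd, and its 9 values ran from -1.02 to -0.42. Without rat 18 the C1s difference was -0.32, that of C1r -0.31 and that of Serping1 -0.26, and 5 members were lower at an unadjusted p under 0.05. High calcium rat 3 had 6 of 9 members above the pool, and low calcium rat 16 had 0 of 9 above it. Without rat 3 C1r and C1s passed (-0.44 and -0.50, limma adjusted p = 0.0438 and 0.0483), with 193 probes passing in all. Without rat 16 no member passed, and 38 probes did.

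Differences also varied by slide, and rats 3 and 16 shared slide 1. On slides 1 to 4 the C1r difference was -0.02, -0.31, -0.59 and -0.63. For C1s it was 0.0044, -0.36, -0.64 and -0.76, and for Serping1 -0.06, -0.27, -0.48 and -0.55. Differences on slide 1 were thus near 0 for these 3 genes and negative on the other slides. C2 gave 0.19, -0.28, -0.57 and -0.76, Cfb 0.29, 0.20, -0.39 and -0.64, and Cfd -0.11, -0.16, -0.80 and -0.55. With slide as a block, C1r stood at -0.39 and C1s at -0.44, and the same number of members, 5, were lower at an unadjusted p under 0.05.

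**Figure D3:**
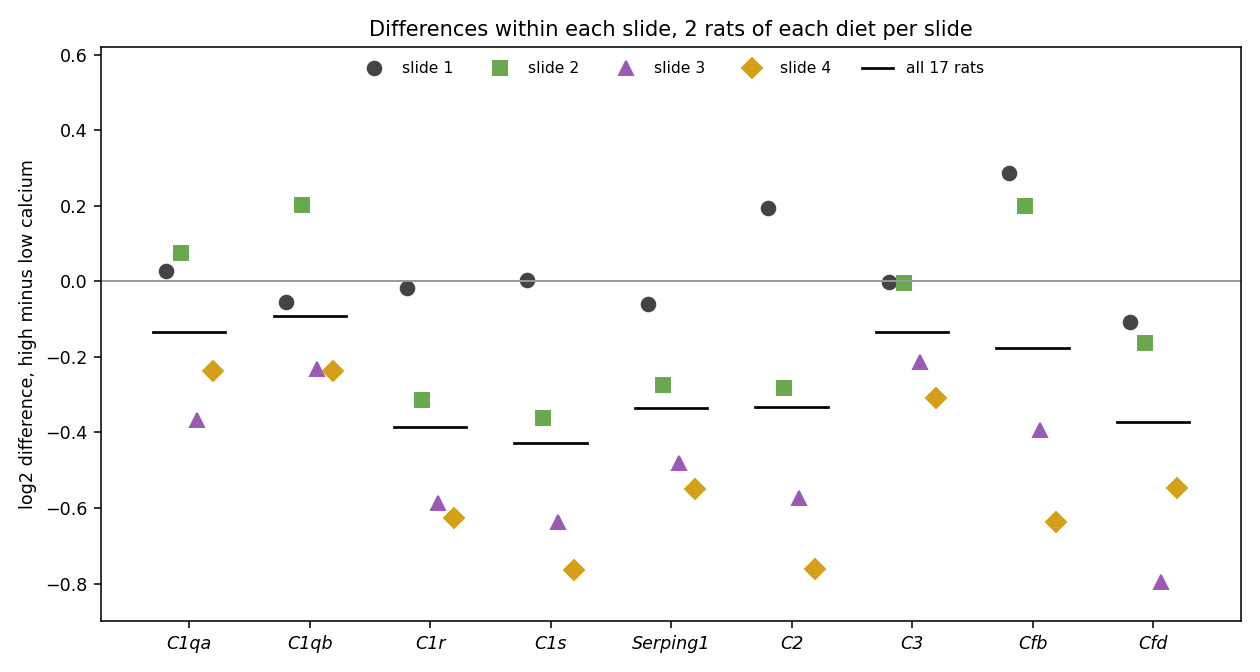
Log2 difference, high minus low calcium, for each gene (horizontal axis) within slides 1 to 4, each with 2 rats of each diet, with a black bar for the fit over all 17 rats. Slide 1 lies at or above every other slide for all genes except C1qa and C1qb, which are highest on slide 2. Slides 3 and 4 are below 0 for all 9 genes.

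C1r, C1s and Serping1 followed each other closely from rat to rat inside each diet. After each diet's mean was subtracted, Pearson's r over 17 rats was 0.96 for C1r with C1s, 0.95 for C1s with Serping1 and 0.95 for C1r with Serping1. These points share their arrays and are given as a description. C1r and C1s are neighbours on chromosome 4 whereas Serping1 lies on chromosome 3. C2 followed C1r at 0.87 and Cfb followed it at 0.80.

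The neighbours C2 and Cfb followed each other less closely, at 0.69, than either followed C1r. C1qa and C1qb reached 0.68 with each other, and C1qb reached only 0.08 with C2. C3 and Cfd reached r of at most 0.50 with any other member over the 17 rats. Within the 9 low calcium rats alone, however, Cfd reached 0.80 with C1r, 0.79 with C2, 0.73 with C1s and 0.65 with Serping1. In the 8 high calcium rats these r were 0.11, -0.02, 0.15 and 0.20. Over the 17 rats all 36 pairs were positive, with a median of 0.48. Without rat 18 the 3 closest pairs kept r of 0.94, 0.91 and 0.92, whereas the median over pairs was 0.35 and 31 of 36 were positive.

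**Figure D4:**
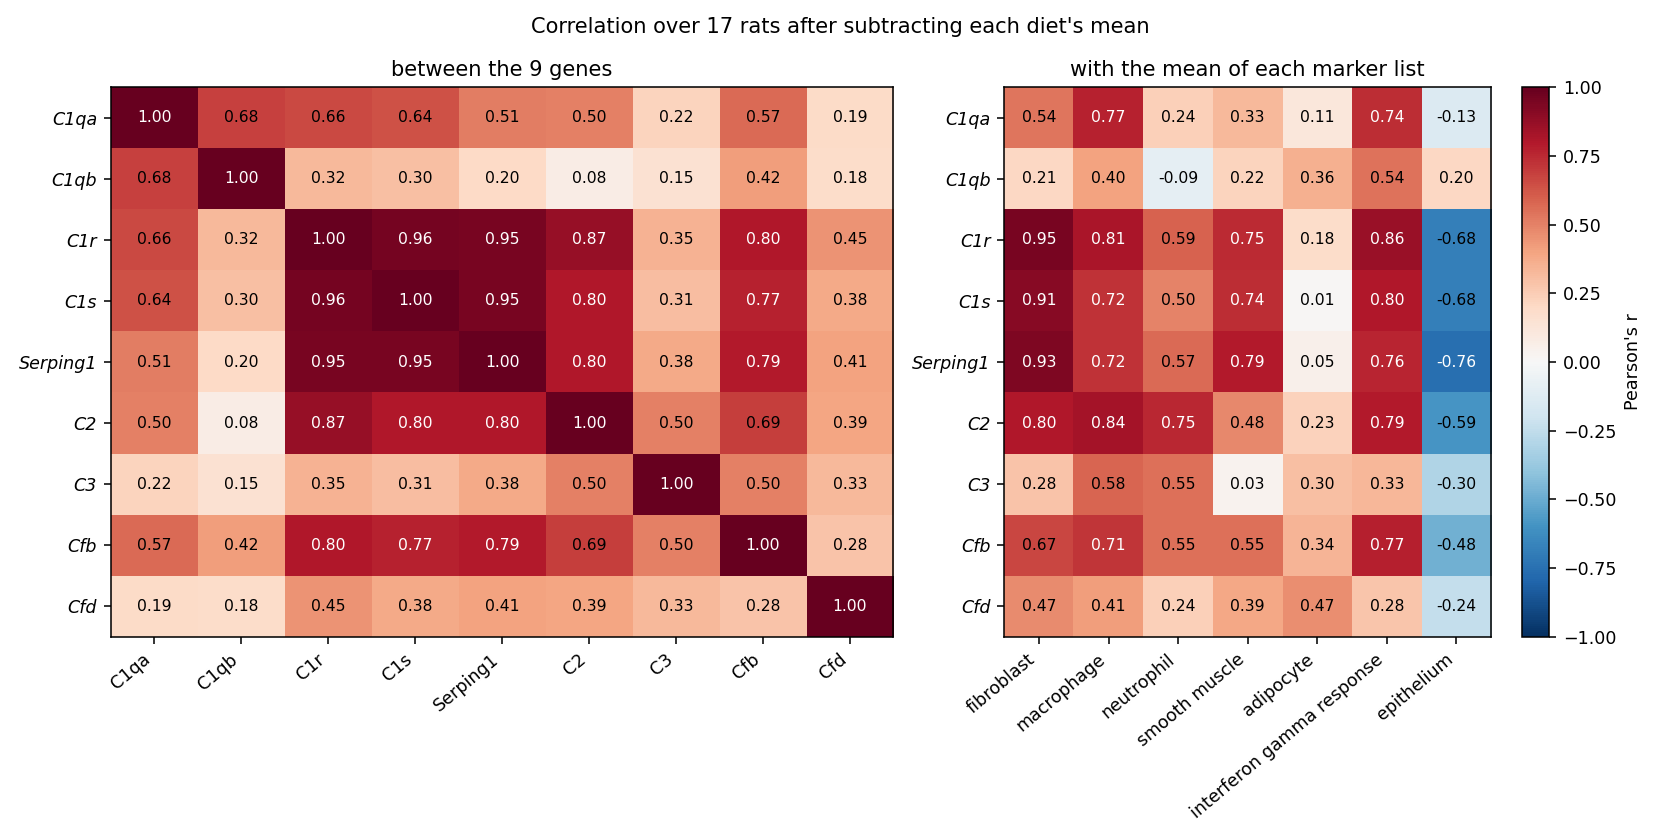
Pearson's r over 17 rats after subtracting each diet's mean, between the 9 genes (left) and with the mean of 7 marker lists (right), on a colour scale from -1 in blue to 1 in red. C1r, C1s and Serping1 form a block at 0.95 to 0.96 and reach 0.91 to 0.95 with the fibroblast markers. Among the lists C1qa is highest with the macrophage markers at 0.77, then with the interferon gamma response genes at 0.74. C2 and C1r reach 0.84 and 0.81 with the macrophage markers. C1qb reaches only 0.40 with the macrophage markers.

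Among 9333 named genes the 3 most alike over the 17 rats were picked for each member, by the same r. For C1r they were C1s, Serping1 and Fcnb (0.95 for the last), and for C1s they were C1r, Serping1 and the collagen gene Col5a2 (0.93). For Serping1 they were C1s, C1r and Bgn, encoding the matrix proteoglycan biglycan (0.92). C2 was most like Fcnb, Tcirg1 and Igsf6 (0.92, 0.92 and 0.91). C1qa was most like Itm2c, Spon1 and Ly49s7 (0.90, 0.85 and 0.84), and C1qb was most like Dnase1l3, Clic2 and Itgad (0.91, 0.86 and 0.85).

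Cfb was most like Gramd1a, Chi3l1 and Clu (0.90, 0.88 and 0.88). The closest genes to C3 were Ptpns1, Krt1-5 and Slc1a1 (0.78, 0.77 and 0.76), and those to Cfd were Ptk2, Moap1 and Rqcd1 (0.83, 0.78 and 0.78). Each of these was chosen as the highest r among all genes compared, so its size is no test of likeness.

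Most markers of fibroblasts, macrophages and neutrophils were also lower in high calcium rats. The 13 tested fibroblast markers were all lower in high calcium rats, 12 of them at an unadjusted p under 0.05, with a median of -0.47 and Dcn, encoding decorin, at -1.03 ± 0.22 (SE, limma adjusted p = 0.142). Their mean per rat ran from -0.73 to 0.19 in high calcium rats, against -0.14 to 0.47 in low calcium rats. It correlated within diets with C1r at 0.95, Serping1 at 0.93 and C1s at 0.91 (0.93, 0.92 and 0.89 without rat 18). With C1qb it reached 0.21 (0.04 without rat 18). With this mean as a covariate the differences were 0.06 for C1r, 0.09 for C1s, 0.07 for Serping1 and -0.06 for Cfd, and 0 members were lower at an unadjusted p under 0.05. Since the markers stood lower in the same rats, diet and fibroblast markers cannot be told apart in that fit.

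**Figure D5:**
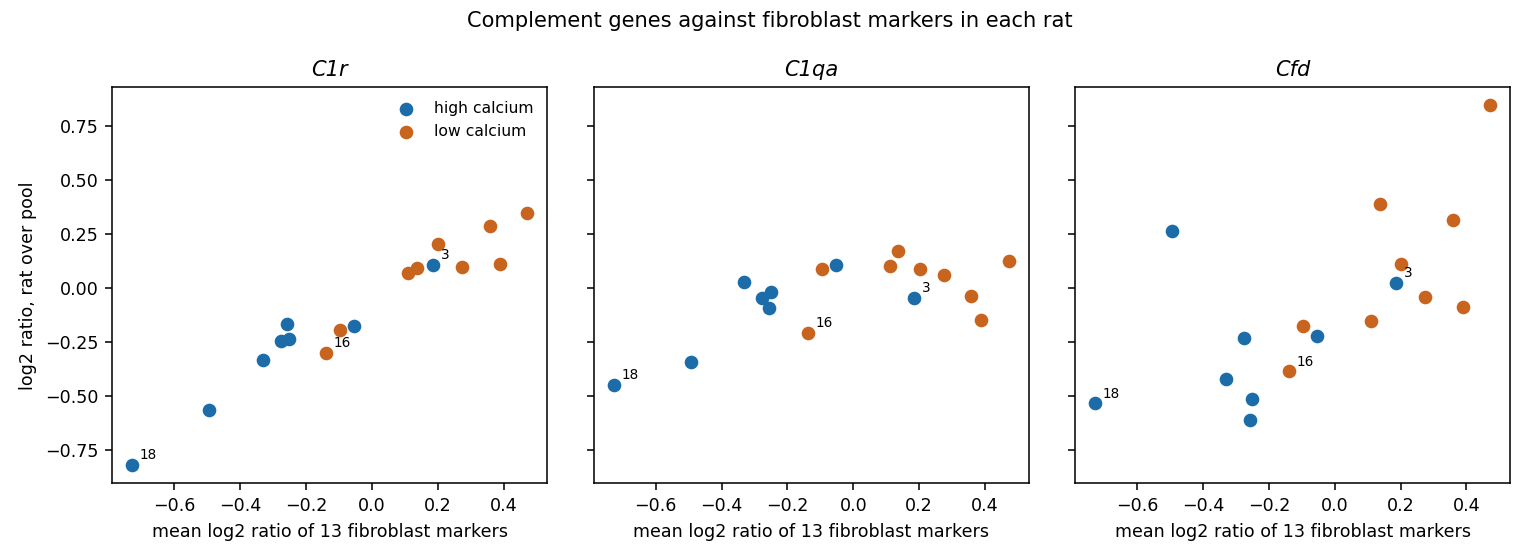
Log2 ratio of C1r, C1qa and Cfd in each rat (vertical axis) against the mean log2 ratio of 13 fibroblast markers (horizontal axis), high calcium rats in blue and low calcium rats in orange. C1r lies along a line from rat 18 at -0.82 to a low calcium rat at 0.35, with rat 3 among the low calcium rats and rat 16 near the high calcium rats.

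Of 10 tested macrophage markers 9 were lower (7 with median centring), 4 at an unadjusted p under 0.05, with a median of -0.16. Trem2 stood at -0.94 ± 0.21 and Cd68 at -0.35 ± 0.10 (SE, limma adjusted p = 0.142 and 0.239), whereas Adgre1 stood at -0.02 ± 0.08 and Mrc1 at 0.10 ± 0.06. Cd163 was above background on 0 arrays. The list's mean per rat ran from -0.44 to 0.07 in high calcium rats, against -0.11 to 0.36 in low calcium rats. It correlated within diets with C2 at 0.84, C1r at 0.81 and C1qa at 0.77 (0.80, 0.71 and 0.65 without rat 18). With C1qb it reached only 0.40 (0.26 without rat 18). With the list's mean as a covariate, differences were -0.03 for C1r, -0.06 for C1s, 0.10 for C2 and 0.08 for C1qa. As with the fibroblast list, diet and macrophage markers cannot be told apart in that fit.

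Among 9 tested neutrophil markers 8 were lower, 5 of them at an unadjusted p under 0.05, with a median of -0.25, led by Mmp9 at -1.01 ± 0.21 (SE, limma adjusted p = 0.142). One of the 9, Elane, was found only under an old symbol, and RefSeq now gives the accession of its probe to the pancreatic elastase Cela2a. Their mean ran from -0.56 to 0.31 in high calcium rats, against -0.23 to 0.45 in low calcium rats, and correlated with C2 at 0.75. Of 11 epithelium markers 10 were higher in high calcium rats (9 when arrays were scaled to 1 spread), with a median of 0.15. Only Muc2 had an unadjusted p under 0.05, at 0.23 ± 0.07 (SE, limma adjusted p = 0.311). Epcam was the marker that stood lower, at -0.10 ± 0.10. The mean of the list correlated within diets with Serping1 at -0.76 (-0.64 without rat 18). Over all 17 rats the means overlapped, at -0.21 to 0.41 in high calcium rats against -0.36 to 0.15 in low calcium rats. Of the 7 tested smooth muscle markers 4 were lower and 3 higher, with a median of -0.02 and 1 each way at an unadjusted p under 0.05. These were Tagln at -0.31 ± 0.14 and Smtn at 0.13 ± 0.05 (SE, limma adjusted p = 0.550 and 0.506). The list's mean ran from -0.21 to 0.14 in high calcium rats, against -0.27 to 0.16 in low calcium rats. The smooth muscle mean nevertheless correlated within diets with Serping1 at 0.79, C1r at 0.75 and C1s at 0.74.

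For Cfd the adipocyte list was set beside it. Of 6 tested markers 4 were lower, or 3 under any other scaling, with a median of -0.04; Adipoq, encoding adiponectin, stood at 0.08 ± 0.13 and Fabp4 at -0.53 ± 0.13 (SE, limma adjusted p = 0.899 and 0.166). Lep, Plin1 and Lipe were too dim to be tested. The list's mean ran from -0.32 to 0.02 in high calcium rats, against -0.14 to 0.13 in low calcium rats, and correlated with Cfd at 0.47. Cfd reached 0.47 with the fibroblast list as well, and 0.41 with the macrophage list. The part of these cell types in the complement differences was not tested.

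Interferon gamma is a known inducer of several complement genes, so its response genes were looked at too. All 12 tested genes had an unadjusted p over 0.05; 5 were lower and 7 higher, with a median of 0.01, against 8 lower and 4 higher when arrays were scaled to 1 spread. Cxcl9 stood at -0.01 ± 0.11 and Cxcl10 at 0.02 ± 0.13 (SE, limma adjusted p = 0.992 and 0.976). Within diets their mean nevertheless correlated with C1r at 0.86, C1s at 0.80, C2 at 0.79 and Cfb at 0.77. Without rat 18 these r were 0.80, 0.72, 0.74 and 0.69. The part of interferon gamma in the complement differences was not tested.

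With the interferon response mean as a covariate, a fit chosen after seeing the data, C1r, C1s and Serping1 passed (-0.37, -0.42 and -0.33, limma adjusted p = 0.00647, 0.0158 and 0.0282). In that fit 209 probes passed in all. The result rests on a covariate chosen among 34 alternatives and is given as a description.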

How the data were processed

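Colon mucosa RNA of 17 rats was hybridised to 2-colour Agilent arrays, and each rat's diet was read from its sample title. Spot intensities in the deposited scanner files come from Agilent Feature Extraction, version 9.5.1.1 per the file headers and 9.5 in the submitters' processing notes. The log2 values of the deposited series matrix cover 28213 of 45018 features and served only as an alternative. How the authors made them is not stated here; they tracked the log2 ratio of the dyes without background subtraction (r = 0.980 over features and arrays after centring), with array medians of 8.76 and an unknown offset.

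Background was corrected by normexp (offset 50) and each array loess-normalised, giving control and outlier spots no weight (limma 3.58.1, R 4.3.3). Spots of 1 probe were averaged. Testing was limited to probes whose Cy5 signal was well above background on 8 or more arrays. Diets were compared by lmFit and eBayes, two-sided, with no covariate and with Benjamini-Hochberg adjustment over all tested probes. Each gene was represented by its brightest tested probe. The fit was tested on simulated data. Dyes were never swapped, which affects both diets alike. Median Cy5 signal per array was 146.8 to 180.8 over a background of 43.5 to 53.5.

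The text names every member, other complement genes at an unadjusted p under 0.05, direct partners whatever their p, and the 3 genes most alike to each member. Values of 1 partner under this rule are not reported here. Members and lists were chosen with earlier results of these data known. Each label names its own rat, and alternatives covered background, normalisation, filter, slide, weights, covariates and left-out rats.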

Additional observations from a re-analysis of the deposited data

Results flagged for a closer look

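Of 42 groups of rats searched for a single rat far from the others (members and named complement genes, by Dixon's test at the 95% level), 2 held one. Chance alone gives about 1 in 20. No group of a member gene was among them.

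High calcium rat 18 had Clu at -0.76, and the next rat of its group was at -0.24, a gap of 0.553 of the group's range. Low calcium rat 15 had C3ar1 at -0.48, and the next rat of its group was at -0.02, a gap of 0.695 of the range.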

How the results depend on the processing

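Of 34 alternatives, 31 planned and 3 chosen after seeing the data, 31 gave all 9 members lower and 29 gave at least 5 lower at an unadjusted p under 0.05. Median centring of each array left 0 such members and 444 such probes of any gene; scale normalisation between arrays left 0 and 740; the macrophage covariate 0 and 178; the fibroblast covariate 0 and 231; and the epithelium covariate, chosen after seeing the data, 3 and 698. Probes passing adjustment numbered 13 with the smooth muscle covariate, 1 with the epithelium covariate, 117 without slide 1 and 209 with the interferon gamma response covariate, the last 3 chosen after seeing the data. Leaving out each rat in turn gave 0 to 193 probes passing (193 without rat 3, 38 without rat 16), 899 to 1656 lower at an unadjusted p under 0.05, and 5 to 6 such members. C1r also passed without slide 1 (-0.50, limma adjusted p = 0.0438).

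Signs turned as follows, and the cause was not tested. Cfi stood at -0.0029 without background correction and at -0.075 on the scanner software's processed signals. Median centring gave Cfp 0.067 and Cd55 0.035; scale normalisation gave C1qb 0.26 and C3 0.052; array weights gave Cfp 0.013 and Cd55 0.0042; and the series matrix gave Cd55 0.017. The macrophage covariate gave C1qa 0.083, C1qb 0.021, C2 0.097, C3 0.063, Cfb 0.32, C1qc 0.078, C4a 0.043, Cfp 0.074, Fcnb 0.072 and Cd55 0.21. The fibroblast covariate gave C1qa 0.032, C1r 0.064, C1s 0.090, C2 0.12, Cfb 0.34, Serping1 0.075, C1qc 0.077, C4a 0.061, Fcnb 0.16, Colec12 0.015, C3ar1 0.030 and Clu 0.023. Without slide 1 Cfp stood at 0.0074. With 1 rat left out Cfp ran from -0.043 to 0.011 and Cd55 from -0.094 to 0.054. The diets share no replicate numbers, so none was used to pair rats; slide served as the block.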
